A study of Homo sapiens with 2 samples.

Results

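The SLC25 genes encode the mitochondrial carriers, a large family of transport proteins. Members were taken as every protein-coding gene whose symbol is SLC25A followed by a number. The uncoupling proteins UCP1, UCP2 and UCP3 were left out by this rule and placed in a related list. The annotation held 48 genes with an SLC25A symbol, of which 47 were among the 28303 genes with deposited values, and SLC25A31 was not analysed here. Poly(A)-selected RNA of HGC27, a human cell line derived from gastric cancer, was sequenced as 2 libraries. The first came from cells transfected with a pcDNA3.1 plasmid carrying the long non-coding RNA LINC01133, and the second from cells given the control pcDNA3.1 plasmid, both harvested 48 h later. What share of the cells took up a plasmid is not given in the sources used here. With a single library on each side (n = 1), differences have no replicate check, no test was possible, and the intervals below are 95% intervals for counting error only. In such bulk RNA, fewer cells that express a gene and less RNA per cell cannot be told apart.

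Mitochondrial carriers sit mostly in the inner membrane and exchange nucleotides, phosphate, citric acid cycle intermediates, amino acids, cofactors and iron between the mitochondrial matrix and the cytosol. They are built from repeats of a pair of membrane-spanning helices, each repeat holding a short signature around a proline, an acidic and a basic residue. Several substrates are served by paralogues, so that the make-up of a pair or trio of carriers is part of what distinguishes tissues.

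LINC01133 was present at 1.44 FPKM in the library labelled as overexpressing it, against 0.0809 FPKM in the control library, from 74 and 4 fragments (ratio 17.8, interval 6.66 to 67.0). FPKM is a fragment count divided by exon length and library depth, and the depth was 16302581 counted fragments in the overexpression library and 15666629 in the control. Of 8 listed gastric epithelial markers, only GATA6 and CDX2 reached 1 FPKM in either library, and the E-cadherin gene CDH1 had 1 fragment in the overexpression library and 2 in the control. EPCAM, another of them, had 12 fragments with overexpression and 1 in the control. All 3 mesenchymal markers exceeded 1 FPKM in both libraries. VIM stood at 210 FPKM in overexpressing and 198 FPKM in control cells, and FN1 at 3.62 FPKM with overexpression and 3.498 FPKM in the control. ZEB1 had 7.82 FPKM with overexpression and 3.06 FPKM in the control (ratio 2.55, 2.28 to 2.87). The 8 epithelial markers summed to 6.61 FPKM with overexpression and 7.29 FPKM in the control, and KRT18 and MUC5AC were listed at 0 in both. The blood marker PTPRC had 0.0659 FPKM with overexpression and 0.0305 FPKM in the control.

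The carriers spanned a wide range of levels that was similar in shape in the libraries. Of the 47 members, 45 were above 0 in the overexpression library and 45 in the control, and SLC25A2 and SLC25A52 were at 0 in both. Summed over the family, the level was 1037 FPKM in the overexpression library and 1318 FPKM in the control, a ratio of 0.787. The 6 most abundant members made up 74.7% of that sum with overexpression and 80.5% in the control. These 6 were the ADP/ATP carriers SLC25A5 and SLC25A6, the glutathione-linked carrier SLC25A39, the phosphate carrier SLC25A3, the citrate carrier SLC25A1 and the ATP-Mg/phosphate carrier SLC25A23. All 6 were lower in the overexpression library as deposited. Neither these values nor the sum was adjusted for the trends with base composition given below. SLC25A5, the leading carrier in both libraries, ranked 79th of all listed genes by mean level.

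**Figure D1:**
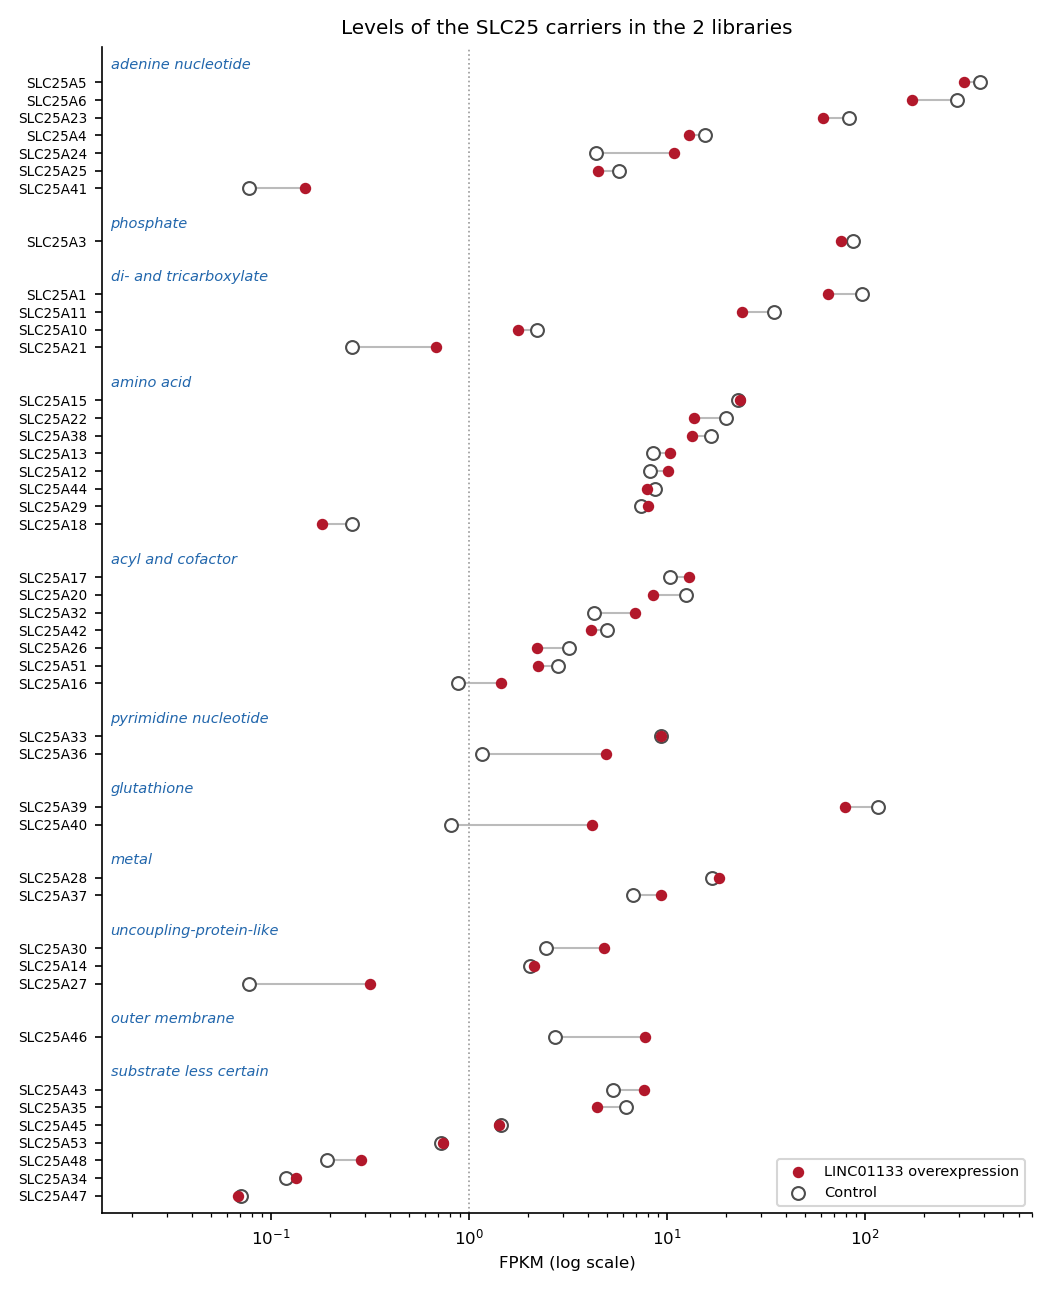
Levels of the individually reported SLC25 carriers above 0, in FPKM on a log scale, with overexpression as filled and control as open circles, 1 library each. Members are grouped by the kind of substrate, a dotted line marks 1 FPKM, and SLC25A5 lies farthest right at 319 FPKM with overexpression and 383 FPKM in the control.

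A mean of at least 1 FPKM over the libraries was reached by 37 members, and the log2 ratio was taken on FPKM + 1, overexpression over control. A size of at least 1 on that scale is called 2-fold here. By that count 4 of the 37 members were at least 2-fold higher and 0 were lower. Over all 11945 genes past the same filter, 11.9% were at least 2-fold higher and 0.444% lower. Among the 10335 protein-coding genes the shares were 11.7% and 0.0484%. The members' 10.8% thus lay near the share over all genes. The family's median log2 ratio was -0.11, against 0.10 over all genes, with 16 members (43.2%) above 0 and 21 below. The share above 0 was 55.4% over all genes, 54.0% over protein-coding genes and 47.1% over SLC genes of other families. The 140 measured SLC genes of other families had 16 members (11.4%) at least 2-fold higher and a median of -0.08. The difference between these sets was not tested.

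The 4 members at least 2-fold higher came from 4 different role groups. SLC25A40, a homologue of the mitochondrial glutathione carrier, had 4.19 FPKM in the overexpression library (3.76 to 4.65) and 0.817 FPKM in the control (0.630 to 1.04). Its ratio of 5.13 (3.93 to 6.79) was the highest in the family past the filter. SLC25A36, a pyrimidine nucleotide carrier, had 4.95 FPKM with overexpression and 1.16 FPKM in the control, a ratio of 4.25. SLC25A46 lies in the outer membrane, where it takes part in mitochondrial fission and lipid handling. It had 7.78 FPKM in the overexpression library (7.31 to 8.26) and 2.74 FPKM in the control (2.46 to 3.04), a ratio of 2.84 (2.52 to 3.21). SLC25A24, a calcium-regulated ATP-Mg/phosphate carrier, had 10.9 FPKM with overexpression and 4.37 FPKM in the control, a ratio of 2.50. The values of SLC25A36 and SLC25A24 were not whole numbers of fragments by the annotated exon length, so they carry no interval. Exons of other genes on the opposite strand overlapped 13.7% of the exon bases of SLC25A24.

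All 4 have AT-rich transcripts, and their values are given with base composition because the whole comparison moved with it. The GC content was 34.2% for SLC25A40, 37.4% for SLC25A36, 38.7% for SLC25A24 and 41.5% for SLC25A46, against a median of 49.0% over all genes past the filter. Among the 3974 genes with a GC content of up to 44.4%, 33.01% were at least 2-fold higher and the median log2 ratio was 0.80. The 10 members in that range had a median of 0.67, and 9 of them were above 0. Among the 3971 genes from 54.3% GC upward the median was -0.34, and the 13 members there had a median of -0.40 with 11 below 0. Over the 37 members GC content and the log2 ratio had a Spearman correlation of -0.763, compared with -0.801 over the 11913 genes with a GC content. The points share both libraries, so these are descriptions. The members' log2 ratio also followed their mean level (Spearman -0.489) and transcript length (0.445).

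**Figure D2:**
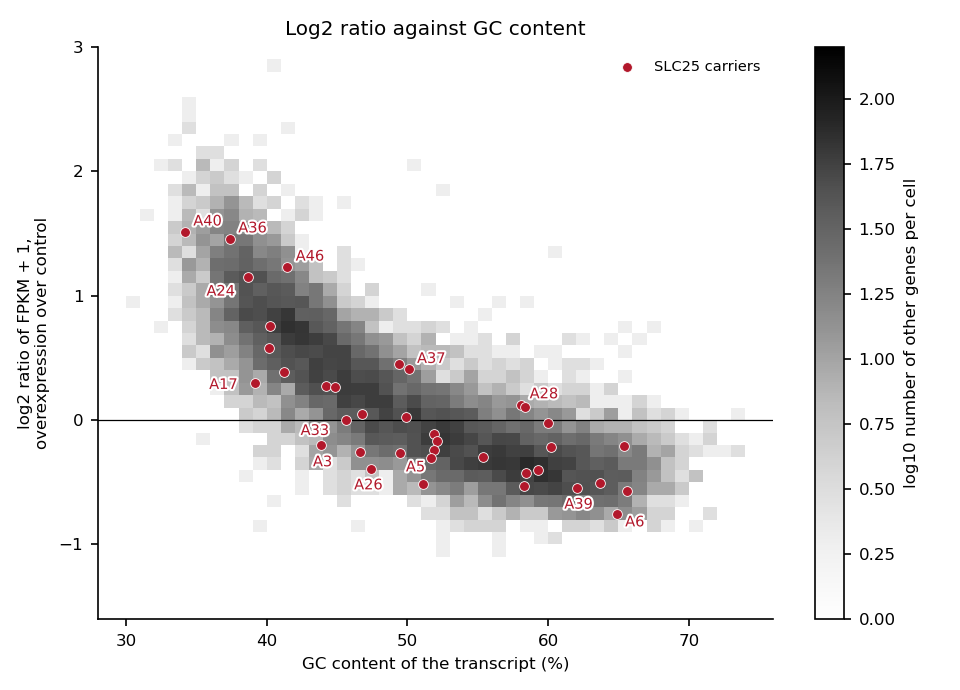
Log2 ratio of FPKM + 1, overexpression over control, against the GC content of the transcript, for the SLC25 carriers (red points) and for other genes past the filter (grey, by the number of genes per cell; genes beyond the axes are not drawn). SLC25A40 at 34.2% GC lies highest among the carriers at 1.51, and SLC25A6 at 64.9% GC lowest at -0.75.

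When trends on GC content and transcript length, fitted over all genes, were subtracted with the overall median of 0.10 kept, 0 of the 37 members were at least 2-fold higher or lower. The share over all genes was then 1.72% higher and 0.764% lower. The log2 ratio of SLC25A40 was 1.51 as deposited and 0.23 after subtraction. That of SLC25A36 was 1.46 and then 0.44, that of SLC25A46 1.23 and then 0.66, and that of SLC25A24 1.15 and then 0.25. Trends on the GC content and length of the coding sequence left more, at 0.44 for SLC25A40, 0.79 for SLC25A36, 0.88 for SLC25A46 and 0.67 for SLC25A24. Under other scalings of the deposited values, SLC25A24 was below 2-fold by the trimmed mean of M values (0.96) and the upper quartile (0.77), and SLC25A46 by the upper quartile (0.87). With the trends on GC content and transcript length subtracted, the family's median was 0.01, against 0.10 over all genes. Of the 6 most abundant members, SLC25A23, SLC25A39 and SLC25A1 then stood at -0.01, 0.01 and 0.00. SLC25A5, SLC25A6 and SLC25A3 stood at -0.11, -0.20 and -0.64. How far base composition accounts for any single difference was not tested.

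**Figure D3:**
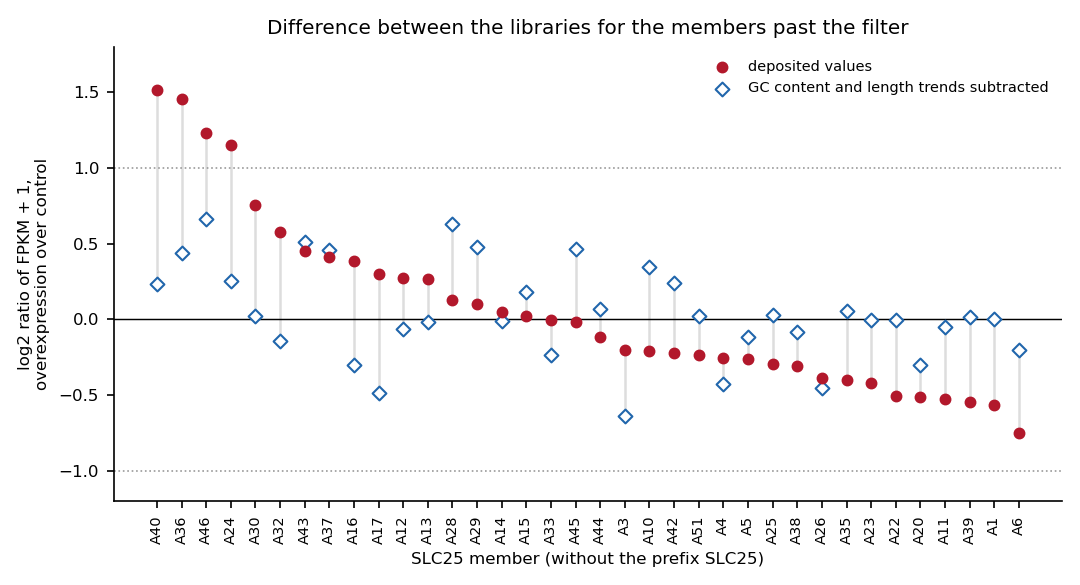
Log2 ratio of FPKM + 1, overexpression over control, for the individually reported SLC25 carriers past the filter, as deposited (red) and once the trends on GC content and length were taken off (blue diamonds). Dotted lines mark 2-fold; 4 members lie above the upper line as deposited and 0 after subtraction.

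Some paralogues that serve the same substrate differ in base composition. Coding stretches around a carrier signature are given for the pairs whose make-up is described next, from the coding sequences of GENCODE 29 on GRCh38, 5′ to 3′ on the coding strand, with the 18 bases of the signature in capitals. Each window has 78 bases and lies at the same aligned codons in both members of a pair. SLC25A40 lies on the minus strand at chr7:87833568-87876357 and SLC25A39 on the minus strand at chr17:44319625-44324870.
SLC25A40: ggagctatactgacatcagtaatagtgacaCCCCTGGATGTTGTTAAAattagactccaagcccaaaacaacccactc
SLC25A39: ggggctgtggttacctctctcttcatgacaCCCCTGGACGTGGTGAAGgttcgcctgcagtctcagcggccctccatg
SLC25A36 lies on the plus strand at chr3:140941830-140980961 and SLC25A33 on the plus strand at chr1:9539482-9585179.
SLC25A36: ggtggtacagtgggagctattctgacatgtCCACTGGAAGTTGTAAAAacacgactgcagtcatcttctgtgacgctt
SLC25A33: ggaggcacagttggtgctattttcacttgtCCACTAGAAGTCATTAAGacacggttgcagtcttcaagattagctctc
SLC25A24 lies on the minus strand at chr1:108134036-108200849 and SLC25A23 on the minus strand at chr19:6436079-6465203.
SLC25A24: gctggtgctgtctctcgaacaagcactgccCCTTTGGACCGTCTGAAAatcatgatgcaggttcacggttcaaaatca
SLC25A23: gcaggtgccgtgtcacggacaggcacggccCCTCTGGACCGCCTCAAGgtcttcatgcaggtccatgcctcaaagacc
SLC25A5 lies on the plus strand at chrX:119468400-119471319 and SLC25A6 on the minus strand at chrX:1386152-1392724.
SLC25A5: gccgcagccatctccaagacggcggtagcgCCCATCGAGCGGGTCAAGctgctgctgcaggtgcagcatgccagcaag
SLC25A6: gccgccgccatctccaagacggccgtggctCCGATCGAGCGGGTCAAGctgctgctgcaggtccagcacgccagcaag

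In these windows the third codon position was G or C in 9 of 26 codons of SLC25A40 and in 20 of 26 of SLC25A39. It was G or C in 7 codons of SLC25A36 and 8 of SLC25A33, in 11 of SLC25A24 and 19 of SLC25A23, and in 23 of SLC25A5 and 25 of SLC25A6. The windows of SLC25A36 and SLC25A33 thus differed little, and so did those of SLC25A5 and SLC25A6. Over the full coding sequences, SLC25A40 and SLC25A39 encode the same residue at 54.1% of 333 aligned codons. At those shared residues the third position was G or C in 30% of the codons of SLC25A40 and 75% of those of SLC25A39. The pyrimidine carriers shared 61.4% of 308 codon positions, with 31.2% for SLC25A36 and 45.0% for SLC25A33, a wider gap than in their windows. The ATP-Mg carriers SLC25A24 and SLC25A23 shared 61.6% of 466, with 44.9% and 78.4% by the same measure. SLC25A5 and SLC25A6 shared 91.9% of 298, with 60.2% and 91.6%, so the small difference between their windows did not hold over the full sequences. A signature occurred at least 3 times in 29 of the 47 members and in 3.01% of 16102 other protein-coding genes.

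The ADP/ATP carriers export the ATP made in mitochondria, and all 3 listed members were lower in the overexpression library as deposited. SLC25A5, the form of dividing cells, had 319 FPKM with overexpression (312 to 326) and 383 FPKM in the control (375 to 391), a ratio of 0.834 (0.809 to 0.859). SLC25A6 had 173 FPKM in the overexpression library (169 to 178) and 293 FPKM in the control (287 to 299), a ratio of 0.592 (0.573 to 0.611). Its log2 ratio of -0.75 was the lowest in the family and was -0.20 with the trends subtracted. SLC25A4, the form of heart and skeletal muscle, had 12.97 FPKM with overexpression and 15.7 FPKM in the control. Its log2 ratio was -0.26 as deposited, -0.43 with the trends subtracted and 0.002 with the trends of the coding sequence. For SLC25A5 these values were -0.26, -0.11 and -0.16. Within the group, SLC25A5 made up 63.1% of the summed FPKM in the overexpression library and 55.3% in the control, SLC25A6 34.3% and 42.4%, and SLC25A4 2.57% and 2.27%. SLC25A5 and SLC25A6 share 91.9% of their residues, and the transcript of SLC25A6 was the more GC-rich at 64.9%, against 49.5%. Exons of an antisense gene covered 15.1% of the exon bases of SLC25A5. SLC25A6 lies in the pseudoautosomal region that chromosomes X and Y share, and how fragments mapping to both copies were counted is not given in the sources used here.

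The ATP-Mg/phosphate carriers adjust the adenine nucleotide pool of the matrix in response to calcium. SLC25A23 had 61.9 FPKM in the overexpression library (60.1 to 63.6) and 83.3 FPKM in the control (81.3 to 85.4), and SLC25A25 had 4.499 FPKM with overexpression and 5.74 FPKM in the control. SLC25A24 made up 14.1% of the group in the overexpression library and 4.67% in the control, while SLC25A23 made up 79.9% with overexpression and 89.1% in the control. The order of SLC25A24 and SLC25A25 thus differed between the libraries, with SLC25A24 at 2.43 times SLC25A25 in overexpressing cells and 0.761 times in the control. These multiples carry no interval. The log2 ratios of SLC25A24 and SLC25A25 differed by 1.45 as deposited and by 0.22 with the trends subtracted. By the trends of the coding sequence they stood at 0.67 and 0.09. The fourth carrier, SLC25A41, had 4 fragments in the overexpression library and 2 in the control (ratio 1.92, 0.275 to 21.2). SLC25A3 carries phosphate for ATP synthesis and had 76.01 FPKM with overexpression (74.6 to 77.4) and 87.7 FPKM in the control (86.1 to 89.3). At a GC content of 43.9% by its longest coding transcript, its log2 ratio of -0.20 was -0.64 after subtraction, the lowest of the members. By the GC content and length of the coding sequence it was -0.32, and it was then no longer the lowest.

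In the glutathione-linked pair, SLC25A39 was the main form in both libraries. It had 79.4 FPKM in the overexpression library (77.1 to 81.7) and 116 FPKM in the control (113 to 119), a ratio of 0.683 (0.657 to 0.710). SLC25A40 accounted for 5.01% of the pair with overexpression (4.51% to 5.56%) and for 0.698% in the control (0.539% to 0.889%). The paralogues thus differed in opposite directions as deposited, with log2 ratios 2.06 apart. With the trends subtracted they lay 0.22 apart, with SLC25A40 at 0.23 and SLC25A39 at 0.01. By the trends of the coding sequence SLC25A40 stood at 0.44 and SLC25A39 at -0.11. SLC25A33, by FPKM the higher of the pyrimidine nucleotide pair, had 9.33 FPKM in the overexpression library (8.59 to 10.1) and 9.34 FPKM in the control (8.59 to 10.1). SLC25A33 held 65.3% of the pair in the overexpression library and 88.9% in the control. These shares divide by merged exon length, 10305 bases for SLC25A36 and 3854 for SLC25A33. The transcripts used for GC content have 4638 and 3854 bases, so the order of this pair depends on the length used. The log2 ratios of SLC25A36 and SLC25A33 differed by 1.46 as deposited and by 0.68 after subtraction, and those of SLC25A24 and SLC25A23 by 1.57 and then 0.26.

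Iron enters mitochondria through the mitoferrins SLC25A28 and SLC25A37. SLC25A37, the form of red cell precursors, had 9.33 FPKM in the overexpression library (8.82 to 9.86) and 6.78 FPKM in the control (6.33 to 7.24), a ratio of 1.38 (1.26 to 1.503). SLC25A28 had 18.5 FPKM with overexpression (16.9 to 20.1) and 16.8 FPKM in the control (15.3 to 18.4), and its ratio interval of 0.965 to 1.24 held 1. SLC25A37 made up 33.6% of the pair with overexpression (31.3% to 35.9%) and 28.7% in the control (26.4% to 31.1%), so these intervals did not overlap. With GC contents of 58.1% and 50.1%, SLC25A28 and SLC25A37 lay above the trend, at 0.63 and 0.46 on the log2 scale after subtraction. SLC25A37 less SLC25A28 was thus 0.28 as deposited and -0.17 after subtraction. By the trends of the coding sequence SLC25A28 stood at 0.54 and SLC25A37 at 0.83, so the direction depended on the trend used. The log2 ratio of SLC25A28 as deposited, 0.13, turned negative by the trimmed mean of M values and by upper quartile scaling.

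**Figure D4:**
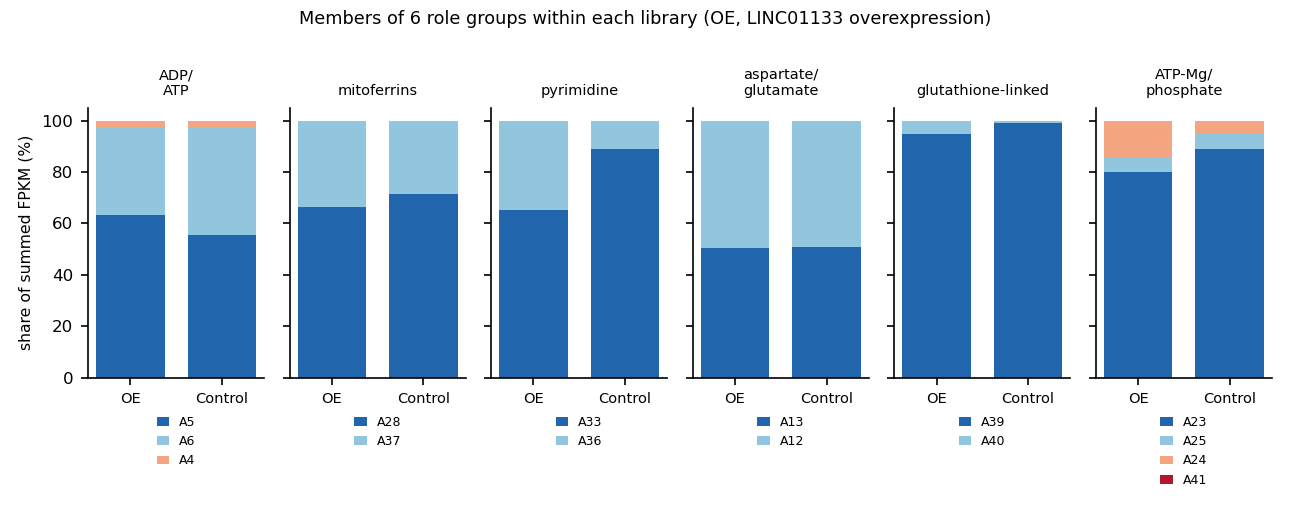
Share of each carrier in the summed FPKM of its role group, in percent, in the overexpression (left bar) and control (right bar) library, 1 library each. SLC25A36 takes 34.7% of the pyrimidine pair with overexpression and 11.1% in the control, while the aspartate/glutamate pair is at 50.6% SLC25A13 with overexpression and 50.7% in the control.

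The 3 carriers of di- and tricarboxylates past the filter had log2 ratios below 0, none of them 2-fold. SLC25A1, which exports citrate for fatty acid synthesis, had 65.1 FPKM in the overexpression library (62.4 to 67.9) and 97.0 FPKM in the control (93.7 to 100.5), a ratio of 0.671 (0.635 to 0.709). SLC25A11, the oxoglutarate/malate carrier of the malate-aspartate shuttle, had 23.9 FPKM with overexpression (22.5 to 25.4) and 35.0 FPKM in the control (33.2 to 36.8), a ratio of 0.684 (0.631 to 0.741). Their transcripts are GC-rich at 65.6% and 58.3%, and with the trends subtracted their log2 ratios of -0.57 and -0.53 were 0.00 and -0.05. SLC25A10, the dicarboxylate carrier, had 1.78 FPKM in the overexpression library and 2.22 FPKM in the control (ratio 0.803, 0.584 to 1.10). Its interval held 1, and its log2 ratio of -0.21 was 0.35 after subtraction. Another gene on the same strand overlaps 46.6% of its exon bases.

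Of 7 amino acid carriers past the filter, 4 had log2 ratios above 0 and 3 below, from -0.51 to 0.27 with a median of 0.02. The aspartate/glutamate carriers SLC25A12 and SLC25A13, the other carrier step of the malate-aspartate shuttle, differed between the libraries by about the same factor. SLC25A12 had 10.2 FPKM with overexpression (9.51 to 10.9) and 8.26 FPKM in the control (7.65 to 8.91), and SLC25A13 had 10.4 FPKM with overexpression (9.63 to 11.3) and 8.499 FPKM in the control (7.77 to 9.28). Their ratios were both 1.23, with intervals of 1.11 to 1.37 and 1.09 to 1.38, and their GC contents were 44.2% and 44.9%. On the log2 scale both stood at 0.27, a value that turned negative by upper quartile scaling. After subtraction SLC25A12 stood at -0.06 and SLC25A13 at -0.02. SLC25A22, a glutamate carrier, was lower at 13.8 FPKM with overexpression, against 19.99 FPKM in the control (ratio 0.688, 0.635 to 0.746). At a GC content of 63.7%, its log2 ratio of -0.51 was -0.002 after subtraction. SLC25A15, the ornithine carrier of the urea cycle, had 23.3 FPKM in the overexpression library and 22.97 FPKM in the control, and its ratio interval of 0.912 to 1.13 held 1. For SLC25A29, a carrier of basic amino acids, the log2 ratio of 0.10 turned negative under all 3 other scalings and was 0.47 with the trends subtracted. The glycine carrier SLC25A38, which supplies haem synthesis, had 13.4 FPKM with overexpression and 16.8 FPKM in the control. Its log2 ratio of -0.31 was -0.08 after subtraction, and -0.30 with the trends of the coding sequence. The branched-chain amino acid carrier SLC25A44 had 7.99 FPKM with overexpression and 8.73 FPKM in the control.

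Carriers of acyl groups and cofactors went both ways. SLC25A20, which moves acylcarnitines in for fatty acid oxidation, had 8.51 FPKM in the overexpression library (7.53 to 9.58) and 12.6 FPKM in the control (11.3 to 13.9), a ratio of 0.678 (0.579 to 0.793). SLC25A26, the S-adenosylmethionine carrier, had 2.21 FPKM with overexpression and 3.21 FPKM in the control, a ratio of 0.690 (0.575 to 0.826). Both stayed below 0 on the log2 scale after subtraction, at -0.30 and -0.45. SLC25A32, linked to folate and FAD, had 6.90 FPKM in the overexpression library (6.25 to 7.60) and 4.30 FPKM in the control (3.78 to 4.87), a ratio of 1.61 (1.37 to 1.89). Its log2 ratio of 0.58 was -0.14 with the trends subtracted. Other genes on the same strand overlap 69.7% of its exon bases, so its value is uncertain. SLC25A17 lies in the peroxisomal membrane and had 13.02 FPKM with overexpression and 10.4 FPKM in the control. Its log2 ratio of 0.30 became -0.49 with the trends subtracted and -0.11 with those of the coding sequence. Among other cofactor carriers past the filter, SLC25A16, SLC25A42 and SLC25A51 had log2 ratios between -0.24 and 0.39. SLC25A16, the highest of these, stood at 0.39 and then -0.30. SLC25A51, a carrier of NAD, stood at -0.24 and then 0.02, but at -0.81 with the trends of the coding sequence.

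Among the uncoupling-protein-like carriers, SLC25A30 had 4.85 FPKM in the overexpression library (4.45 to 5.28) and 2.46 FPKM in the control (2.17 to 2.78), a ratio of 1.97 (1.70 to 2.29). On the FPKM + 1 scale it did not reach 2-fold, at 0.76, and it stood at 0.02 after subtraction and at 0.48 with the trends of the coding sequence. SLC25A14 had 2.14 FPKM with overexpression and 2.04 FPKM in the control, and its interval held 1. Of the members whose substrate is less certain, SLC25A43 had 7.66 FPKM with overexpression and 5.33 FPKM in the control, a ratio of 1.44 (1.23 to 1.69). Its log2 ratio was 0.45 as deposited and 0.51 with the trends subtracted. SLC25A35 had 4.45 FPKM with overexpression and 6.21 FPKM in the control, and SLC25A45 had 1.41 FPKM with overexpression and 1.45 FPKM in the control. The log2 ratio of SLC25A35 was -0.40 as deposited and 0.05 with the trends subtracted. A gene on the other strand overlaps 33.2% of the exon bases of SLC25A35. A distance of at least 0.5 from 0 after subtraction was found for SLC25A46, SLC25A28, SLC25A43 and SLC25A3, or 10.8% of the members, against 14.6% of all genes. Because the overall median of 0.10 was kept, this is not a distance from the trend, and which members pass depends on that choice.

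The 10 members under the filter were SLC25A2, SLC25A18, SLC25A21, SLC25A27, SLC25A34, SLC25A41, SLC25A47, SLC25A48, SLC25A52 and SLC25A53. SLC25A53 was the most abundant of them, at 0.744 FPKM with overexpression and 0.727 FPKM in the control. SLC25A21, the oxodicarboxylate carrier, had 41 fragments in the overexpression library and 15 in the control, a ratio of 2.63 (1.42 to 5.11). SLC25A27, an uncoupling-protein-like carrier of brain, had 17 fragments with overexpression and 4 in the control, a ratio of 4.08 (1.33 to 16.7). Both have AT-rich transcripts, of 39.5% and 42.2% GC, and exons of opposite-strand genes overlapped 28.8% of the exon bases of SLC25A21. For SLC25A2 and SLC25A52 the count of 0 allows, at 3 fragments, up to 0.130 and 0.140 FPKM in the overexpression library and 0.135 and 0.145 FPKM in the control.

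Counting error was small beside many of these differences. Of the 34 members past the filter with whole fragments, the ratio interval lay above 1 for 10, below 1 for 14, and held 1 for 10. Such an interval compares these libraries and not the conditions. The same count over all genes is not given here, so these counts do not set the carriers apart from other genes. Exons of other genes overlapped at least 10% of the exon bases of 12 of the 47 members, for 3 of them on the same strand. Besides those named above, they included SLC25A25 (16.2%), SLC25A26 (15.5%) and SLC25A22 (10.8%), all on the opposite strand. Of 43 annotated SLC25 pseudogenes 13 were listed, and SLC25A15P4 was the highest, at 5.31 FPKM with overexpression and 1.99 FPKM in the control from 25 and 9 fragments.

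Genes that work beside the carriers fall into 6 lists. Of 14 measured genes of the machinery that imports carriers and inserts them into the inner membrane, none reached 2-fold in either direction (0 of 14), with a median log2 ratio of -0.15. The receptor TOMM70, which takes in carrier precursors, had 15.7 FPKM with overexpression and 7.78 FPKM in the control, a ratio of 2.01 (1.83 to 2.21). Its log2 ratio was 0.92, and 0.37 with the trends subtracted. The insertase subunit TIMM22 had 11.1 FPKM with overexpression and 17.2 FPKM in the control (log2 ratio -0.60, then -0.42). The chaperone TIMM9 had 8.997 FPKM with overexpression and 5.02 FPKM in the control (0.73, then 0.21). TIMM8B, outside the 3 largest by size, stood at -0.48 and then -0.68. After subtraction 4 of the 14 genes were above 0 and 10 below. Among 19 measured inner-membrane transporters without an SLC25A symbol, the median was -0.05. Of these, 2 (10.5%) passed the 2-fold mark, both upward, near the share over all genes. These were MICU2, a regulator of the calcium uniporter (11.6 FPKM with overexpression, 4.48 FPKM in the control), and the ABC transporter ABCB10 (11.6 FPKM with overexpression, 5.29 FPKM in the control). After subtraction their log2 ratios were 0.44 and 0.74. The third by size was MCUB, a subunit that restrains the uniporter, at 0.67 and then 0.03. The uncoupling protein UCP2, kept out of the family by its symbol, is in this list. It had 42.6 FPKM with overexpression and 64.3 FPKM in the control (log2 ratio -0.58, then -0.09). UCP1 and UCP3 were under the filter.

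Of 6 measured outer-membrane channels and carrier-like proteins, 0 passed 2-fold and the median was -0.29. The translocator protein TSPO had 75.1 FPKM with overexpression and 125 FPKM in the control (log2 ratio -0.72, then -0.13). MTCH1 had 78.1 FPKM with overexpression and 102 FPKM in the control (-0.38, then 0.12). VDAC3 had 44.5 FPKM with overexpression and 34.4 FPKM in the control (0.36, then 0.01). Of the rest, MTCH2 stood at -0.31 and then -0.79, VDAC2 at -0.26 and then -0.41, and VDAC1 at 0.03 and then -0.03. Among 6 measured shuttle enzymes, GPD2, the mitochondrial glycerol phosphate dehydrogenase, was at least 2-fold higher, with 10.3 FPKM in the overexpression library and 3.88 FPKM in the control (log2 ratio 1.21, then 0.43). GPD1L stood at 0.67 and then 0.31, and malate dehydrogenase MDH2 at -0.56 and then -0.31, with a median of 0.02 for the list. Of 18 citric acid cycle enzymes 1 was at least 2-fold higher, the succinate dehydrogenase subunit SDHD, and the median was -0.15. SDHD had 14.9 FPKM in the overexpression library and 2.04 FPKM in the control, and it alone of the 6 lists stayed past 2-fold after subtraction (2.39, then 1.83). The next by size were SUCLA2 (0.95, then 0.44) and DLD (0.90, then 0.07). Of 12 genes of iron-sulfur cluster and haem synthesis 0 passed 2-fold, with a median of -0.06, and the largest values were those of UROD (-0.52), CPOX (0.50) and ISCA1 (0.50).

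**Figure D5:**
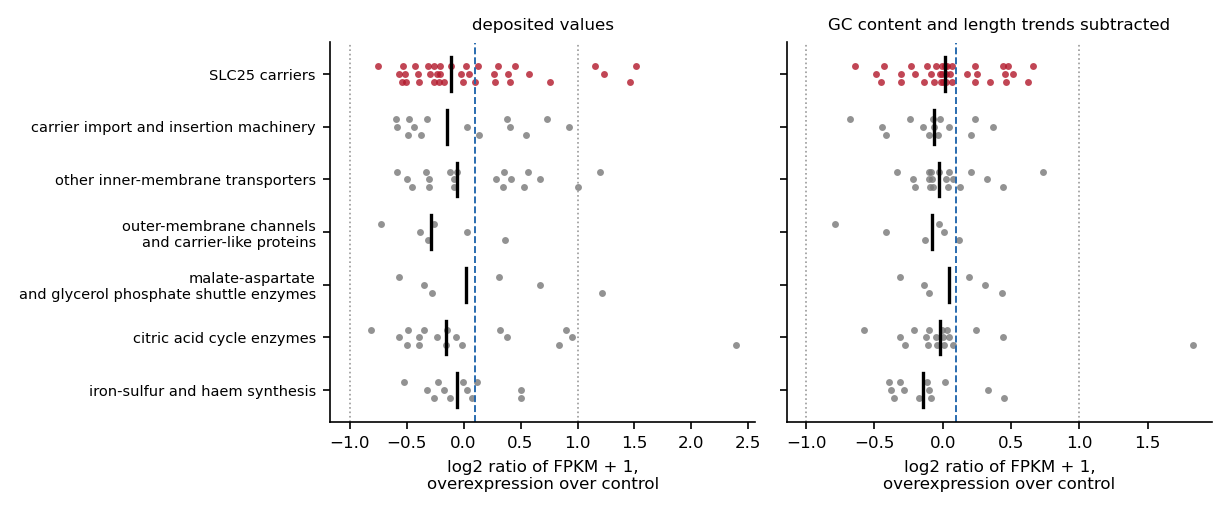
Log2 ratio of FPKM + 1, overexpression over control, of each gene past the filter in the SLC25 family (red) and in 6 lists of related genes (grey), as deposited (left) and once the trends on GC content and length were taken off (right). Black bars are list medians, -0.11 and then 0.01 for the carriers, the dashed line is the median of all genes at 0.10, and dotted lines mark 2-fold.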

How the data were processed

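The files deposited by the authors give a single number for each gene, read here as FPKM since the labels name no unit. Multiplied by the merged exon length in GENCODE 29, the deposited FPKM values were whole multiples of 1 step per library, within 0.02 of a fragment, for 94.4% of genes in the overexpression and 94.5% in the control library. That step gave depth and fragments. The submitters' processing notes name GRCh38, HTSeq 0.6.0, HISAT2 2.1.0 and Bowtie2 2.2.3; their roles, the strand setting and the handling of shared fragments are not given in the sources used here.

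A single member enters all counts and medians, but its own values are not reported here. Members and lists were chosen with earlier results of these data known. Log2 ratios use FPKM + 1, and 11945 genes with a mean of at least 1 FPKM were kept. Intervals are exact at 95%: Poisson for levels, Clopper-Pearson for ratios and shares. No p-value was computed. GC content was taken from 1 transcript per gene, the longest coding one whose 3′ UTR is annotated. Trends were fitted by lowess (span 0.3, statsmodels 0.14.6), first on GC content, then on log2 length. Coding sequences were aligned as translated (Biopython 1.88, BLOSUM62). Named genes were the 10 members with the largest log2 ratio in size, the 6 most abundant and all members of 6 role groups. Members alone in their role group if past 2-fold, and up to 3 genes per related list, were also named. Other members and other list genes were named after their values were seen. The scripts were tested on simulated data. Alternatives were 3 scalings, other filters, a pseudocount and fold, and trend subtraction.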

Additional observations from a re-analysis of the deposited data

How the results depend on the processing

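No paired analysis was possible because there was 1 library on each side. Scaling lowered the overexpression library against the control by 0.21 (log2 of FPKM) by the trimmed mean of M values, 0.12 by the median of ratios and 0.42 by the upper quartile, with smaller shifts for low genes on FPKM + 1. It turned the sign of 4, 3 and 7 of the 37 members, none of them at least 2-fold apart.

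The 4 members at least 2-fold higher became 3 by the trimmed mean of M values, 3 without members that share exons, 2 by upper quartile scaling, 2 at a mean of at least 5 FPKM, and 0 with trends subtracted, whether on GC content alone, on GC content and length, on both fitted on protein-coding genes, or on coding sequence. The 0 members lower became 1 by upper quartile scaling and 1 at 1.5-fold. The median of -0.11 became -0.30 by the trimmed mean of M values and -0.46 by upper quartile scaling. Over all genes, the 1421 higher became 921 by the trimmed mean of M values, 587 by upper quartile, 2244 with a pseudocount of 0.1, 656 at a mean of at least 5 FPKM, 3199 at 1.5-fold, and 205, 220, 313 and 296 with trends on GC content and length, GC content alone, fitted on protein-coding genes, and of the coding sequence. The 53 lower numbered 107 by the trimmed mean of M values, 460 by upper quartile, 127 with the pseudocount of 0.1, 10 at a mean of at least 5 FPKM, 632 at 1.5-fold, 109 with no filter and 5 among protein-coding genes. With trends subtracted they numbered 91 for GC content and length, 82 for GC content alone and 3 for coding sequence. Where a value moved, the cause was not tested. Protein-coding genes only, trends fitted on them or on coding sequence, and leaving out members with shared exons were chosen after the data were seen. Depth limits the members under the filter most.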
